A study of Mus musculus with 20 samples.

Results

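The liver transcriptome of mice fed a high-fat diet (HFD) with salmon filet was compared with that of mice kept on chow. The comparison used 5 Salmon filet HFD mice (mouse 22, 23, 25, 26 and 27) and 5 Chow mice (mouse 1, 2, 5, 7 and 10), which are 10 of the 20 libraries of the series, chosen by the diet that the column headers of the count table and the sample labels both give. All mice were female C57BL/6J, entered the study when 8 weeks old and were sampled when 28 weeks old, with 1 liver library per mouse and no pooling. The Chow mice received chow throughout, while the Salmon filet HFD mice received a HFD for 10 weeks and then, for 10 weeks, a HFD in which freeze-dried salmon filet supplied 50% of the protein. The other groups were Fishmeal HFD (5 mice) and Beef HFD (4 mice), with the same diet history and another protein source. Mouse 31 is salmon by its sample label and beef by its column header, so it entered no group here. The diets of the mice compared differ at once in fat, carbohydrate and protein content, in protein source and in other ingredients. The effects of the fat, of the salmon and of the rest cannot be told apart against chow. The mice are separate animals, so the p-values measure the spread between animals.

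The liver takes up dietary fat, makes and exports cholesterol, converts cholesterol into bile acids, and clears drugs and plant compounds with cytochrome P450 and conjugating enzymes. Many of these genes are driven by nuclear receptors that sense lipids and xenobiotics, such as LXR for oxysterols, FXR for bile acids, PPAR-alpha for fatty acids, and CAR and PXR for foreign compounds, while SREBP-2 drives cholesterol synthesis when sterols are low. Hepatic genes also follow the circadian clock, a loop in which CLOCK and BMAL1 (gene Arntl) activate the Per, Cry, Nr1d and PAR bZip genes, whose products feed back on it. These points are background, and the sections that follow give the measured levels by pathway.

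The libraries held 44536900 to 66078351 reads on genes in Chow and 51891738 to 60432246 in Salmon filet HFD. The principal component that took most of the variance (39%) separated the groups, with Chow from -24.9 to -6.3 and Salmon filet HFD from 10.4 to 21.2. Hepatocyte markers were high in every library, and their summed level was 125719 to 144589 CPM (counts scaled to library size) in Chow and 120325 to 132122 in Salmon filet HFD. Of these 10 markers, Cebpa, a transcription factor of mature hepatocytes, was called higher (log2 fold change 0.48, adjusted p = 0.0487), and in none of the 10 fits that dropped a mouse. Mouse 23 stood apart in acute phase genes: its mean log2 level over 23 such genes was 1.90 above the average of the 10 mice, against -0.15 to 0.31 in the other Salmon filet HFD mice and -0.71 to -0.06 in Chow.

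Of 13460 protein coding genes tested with edgeR, 615 (4.57%) differed between Salmon filet HFD and Chow at an adjusted p under 0.05. Of these, 299 (2.22%) were higher and 316 (2.35%) lower with salmon filet, and 153 rose and 177 fell by more than 1.5-fold. At an unadjusted p under 0.05 the share was 25.2%, and 8.93% of the genes tested had CPM values without overlap between the groups. The median log2 fold change over all these genes was 0.01. Counts of called list members are to be read beside the 4.57%, and a single call does not set a list apart. Genes are said to rise, fall or be called on the edgeR test. DESeq2 called 1453 genes, and its counts are given for lists where they differ most. As this is more than the 615 of edgeR, the share of 4.57% does not apply to the DESeq2 counts. Without mouse 23, 393 genes passed, of which 343 were among the 615. In bulk liver, fewer cells of a type and less RNA per cell cannot be told apart.

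The 12 genes with the largest increase by the naming rule had varied functions. The rule took only called genes whose groups did not overlap, so the absence of overlap in them adds no support. Values are CPM, given in mouse order 1, 2, 5, 7 and 10 for Chow and 22, 23, 25, 26 and 27 for Salmon filet HFD. Slc39a5 (ENSMUSG00000039878, chr10:128395931-128401229, minus strand, GRCm38), a zinc transporter, stood at 0.186, 0.552, 0.529, 0.498 and 0.697 in Chow and at 2.34, 1.3, 3.32, 3.48 and 4.56 in Salmon filet HFD. Every Salmon filet HFD mouse exceeded every Chow mouse, and the log2 fold change was 2.61 (SE 0.369, adjusted p = 0.00411). Adora1, the adenosine A1 receptor (chr1:134199223-134235431, minus strand), was 6.08, 7.84, 8.98, 5.58 and 9.99 in Chow and 18.6, 18.6, 32.3, 26.0 and 32.8 in Salmon filet HFD, again without overlap (log2 fold change 1.74, SE 0.208, adjusted p = 0.00151). Its exons share 1162 of 5785 bases with Mybph on the opposite strand, and whether reads were assigned by strand is not given in the sources used here. Bmf, a pro-apoptotic BH3-only gene (chr2:118528757-118549687, minus strand), was 3.85, 5.87, 5.98, 9.48 and 6.15 in Chow and 13.7, 19.4, 22.8, 21.6 and 33.0 in Salmon filet HFD, with no overlap (log2 fold change 1.82, SE 0.249, adjusted p = 0.00314).

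The other genes of the 12 with the largest increase were Dbp and Per3, which are described with the clock, and Sema5b, Kcnk10, Slc22a29, Wfdc2, Chac1, Extl1 and Stap1. Sema5b, a semaphorin, rose by 2.52 on the log2 scale (adjusted p = 0.00465) and the potassium channel gene Kcnk10 by 2.21 (adjusted p = 0.00178). The gene Slc22a29, of the organic anion transporter family, rose by 2.06 (adjusted p = 0.00138), and its transcript is 96.8% identical to Slc22a27 over 2088 bases, so that reads may be split between these genes. Wfdc2, a secreted whey acidic protein family member, rose by 1.98 (adjusted p = 0.00571), and the glycosyltransferase gene Extl1 by 1.81 (adjusted p = 0.00247). Chac1, an ATF4 target that degrades glutathione, was 0.108 to 1.06 CPM in Chow and 1.36 to 3.46 in Salmon filet HFD (log2 fold change 1.83, adjusted p = 0.0396). The adaptor gene Stap1 rose by 1.65 (adjusted p = 0.0240). The change of Chac1 was called in 1 of the 10 fits that dropped a mouse in turn, that of Stap1 in 6, and those of the other 8 genes outside the clock in each of the 10.

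**Figure D1:**
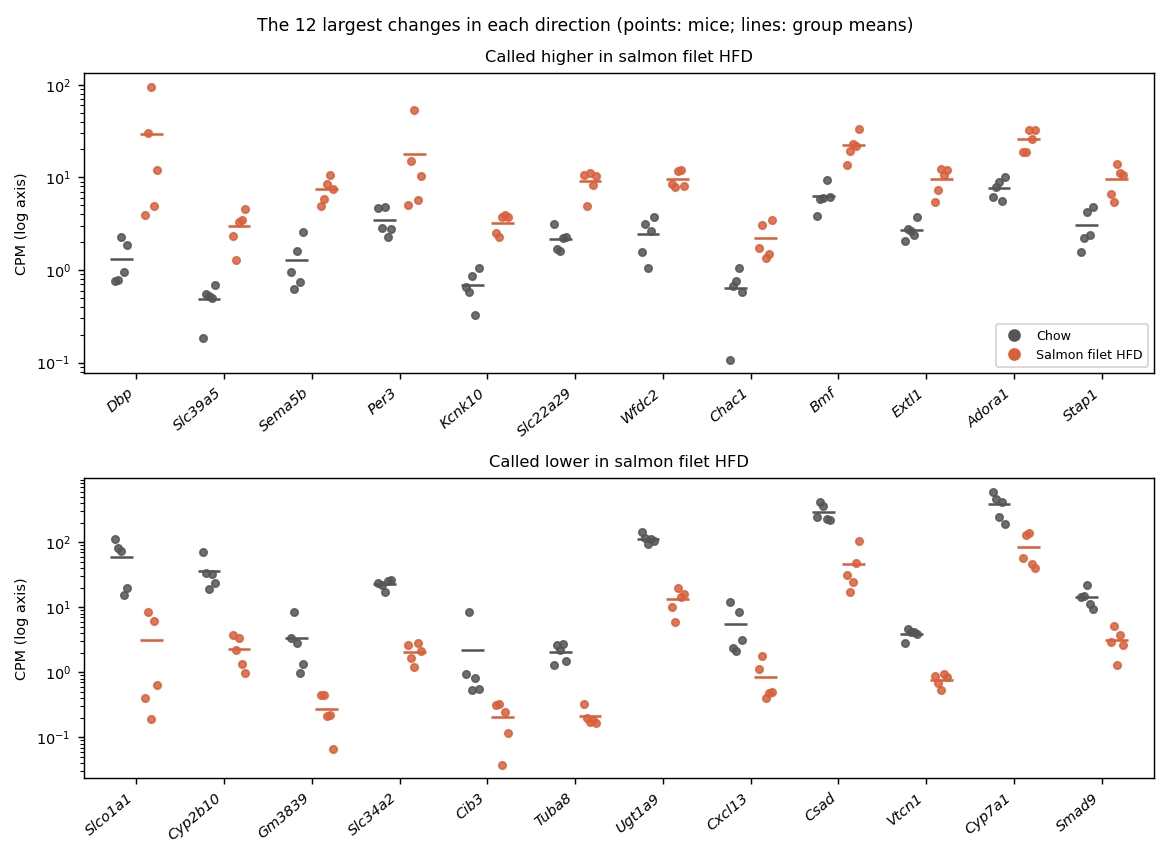
CPM on a log axis for the 12 genes called higher and the 12 called lower with the largest change, in 5 Chow mice (grey) and 5 Salmon filet HFD mice (orange); points are mice and lines are group means. The groups do not overlap in any of these genes, as the choice of genes required, and Dbp, Per3 and Slco1a1 spread most within Salmon filet HFD.

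The 12 genes with the largest decrease, chosen by the same rule, were as varied, from transporters to enzymes of bile acid and taurine synthesis and signalling genes. Slc34a2, a sodium phosphate cotransporter (chr5:53038081-53071664, plus strand), was 23.3, 21.7, 17.3, 25.6 and 26.7 CPM in Chow and 2.62, 1.66, 1.2, 2.79 and 2.13 in Salmon filet HFD. The levels within each group were close and the groups far apart (log2 fold change -3.46, SE 0.211, adjusted p = 1.88e-05). Csad, which makes hypotaurine from cysteine sulfinate on the way to taurine (chr15:102176999-102204724, minus strand), was 248, 415, 365, 224 and 217 CPM in Chow and 31.8, 17.3, 24.5, 48.3 and 106 in Salmon filet HFD. Mouse 27 was the highest of the Salmon filet HFD mice and still below every Chow mouse, and the log2 fold change was -2.69 (SE 0.439, adjusted p = 0.00937). Slco1a1, an uptake transporter for organic anions and bile acids (chr6:141907282-141946962, minus strand), was 113, 80.3, 72.0, 15.3 and 20.1 CPM in Chow and 0.406, 8.56, 0.192, 6.07 and 0.632 in Salmon filet HFD. Both groups were widely spread, and the log2 fold change of -4.24 had an SE of 0.934 (adjusted p = 0.0318).

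Vtcn1, an inhibitory ligand for T cells, fell by 2.34 on the log2 scale (adjusted p = 1.59e-04), Tuba8, an alpha tubulin, fell by 3.28 (adjusted p = 2.16e-04) and Smad9, a transducer of BMP signals, fell by 2.20 (adjusted p = 0.00515). Cxcl13, a chemokine that attracts B cells, was 2.15 to 11.9 CPM in Chow and 0.403 to 1.77 in Salmon filet HFD (log2 fold change -2.71, adjusted p = 0.0270). Cib3, a calcium-binding gene, was 0.529 to 0.960 CPM in 4 Chow mice and 8.33 in mouse 2, against 0.0383 to 0.322 in Salmon filet HFD (log2 fold change -3.43, adjusted p = 0.0492). It reached the mean of 1 CPM that the naming rule asks for only through mouse 2. Gm3839 was also lower (log2 fold change -3.60, adjusted p = 0.0131), but its transcript is 99.1% identical to Gapdh over 1232 bases, and its count is uncertain. Cyp2b10, Ugt1a9 and Cyp7a1, the other genes of the 12 with the largest decrease, are described with their pathways. Of the 24 genes with the largest change in either direction, 17 were called in each of the 10 fits that dropped a mouse.

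The circadian clock list had the most members called higher. Of 19 genes tested, edgeR called 7 higher and none lower, DESeq2 called 8 higher and 3 lower, 16 had an unadjusted p under 0.05, and the median log2 fold change was 0.80. Dbp, a PAR bZip activator and a direct output of the clock (chr7:45705088-45710203, plus strand), was 0.758, 0.786, 2.29, 0.952 and 1.84 CPM in Chow and 3.93, 30.3, 94.8, 4.94 and 11.9 in Salmon filet HFD. The Salmon filet HFD mice differed widely among themselves, with mouse 25 the highest and mouse 22 the lowest. The log2 fold change was 4.46 (SE 0.867, adjusted p = 0.0229), the largest increase of the comparison by the naming rule. Dbp shares 539 of 2993 exon bases with Sphk2 on the opposite strand.

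Its relative Tef was 27.8, 28.0, 47.4, 24.9 and 29.2 CPM in Chow and 52.3, 103, 187, 58.8 and 71.8 in Salmon filet HFD (log2 fold change 1.59, SE 0.325, adjusted p = 0.0257). Per3, a period gene, was 4.67, 2.83, 4.75, 2.29 and 2.75 CPM in Chow and 4.98, 15.1, 52.7, 5.73 and 10.4 in Salmon filet HFD (log2 fold change 2.36, SE 0.591, adjusted p = 0.0452). Mouse 25 was again the highest, and the lowest Salmon filet HFD mouse exceeded the highest Chow mouse by little in both genes. Ciart, a repressor of the loop, rose by 2.96 on the log2 scale (adjusted p = 0.0378), Nr1d2, which encodes REV-ERB-beta, by 1.4 (adjusted p = 0.0333) and Per2 by 1.04 (adjusted p = 0.0375), the values of the last 2 overlapping between the groups. Cry2 was the remaining called member (log2 fold change 0.85, adjusted p = 0.0168) and is named although it falls outside the naming rule. The activators were on the other side of zero without passing the test: Arntl was at -0.88 on the log2 scale (adjusted p = 0.114), Clock at -0.51 (adjusted p = 0.0579) and Npas2 at -0.88 (adjusted p = 0.335), while Cry1 was at -0.90 (adjusted p = 0.0887). Of the 7, Cry2 was called in each of the 10 fits that dropped a mouse, Dbp and Tef in 8, Ciart, Nr1d2 and Per2 in 2 and Per3 in 1. Without mouse 23, Dbp, Tef and Cry2 passed and the median was 0.83. The hour at which each mouse was killed is not given in the sources used here, and its part in these values was not tested.

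The E-box CACGTG, the element bound by CLOCK and BMAL1, is printed here for the called clock genes whose RefSeq promoter window held it, because these genes moved together. The windows run from 250 bases before to 50 bases after each annotated start (GRCm38.p6), a window was found for 6 of the 7 called genes, and 2 of the 6 held the E-box, which reads the same on both strands. Over all 32851 windows the share that held it was 7.15%. That share is per window, while a gene was counted if any of its windows held the E-box, so they are not like measures. Capitals mark the E-box, and each sequence is given 5′ to 3′ on the strand of the gene, with the alternative starts of Tef on separate lines.
Tef, chr15:81802516-81802581, plus strand: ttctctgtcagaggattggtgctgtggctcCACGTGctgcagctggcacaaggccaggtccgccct
Tef, chr15:81811246-81811311, plus strand: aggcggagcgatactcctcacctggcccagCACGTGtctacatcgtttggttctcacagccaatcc
Ciart, chr3:95882237-95882374, minus strand: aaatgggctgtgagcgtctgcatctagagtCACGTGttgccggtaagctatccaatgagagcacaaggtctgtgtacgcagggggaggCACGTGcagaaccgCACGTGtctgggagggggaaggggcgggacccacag
Ciart held 3 E-boxes, 116, 58 and 44 bases before its start. The windows of Dbp, Per3, Nr1d2 and Cry2 did not hold these letters, while those of Per1, Cry1 and Bhlhe41, which did not pass the test, did.

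**Figure D2:**
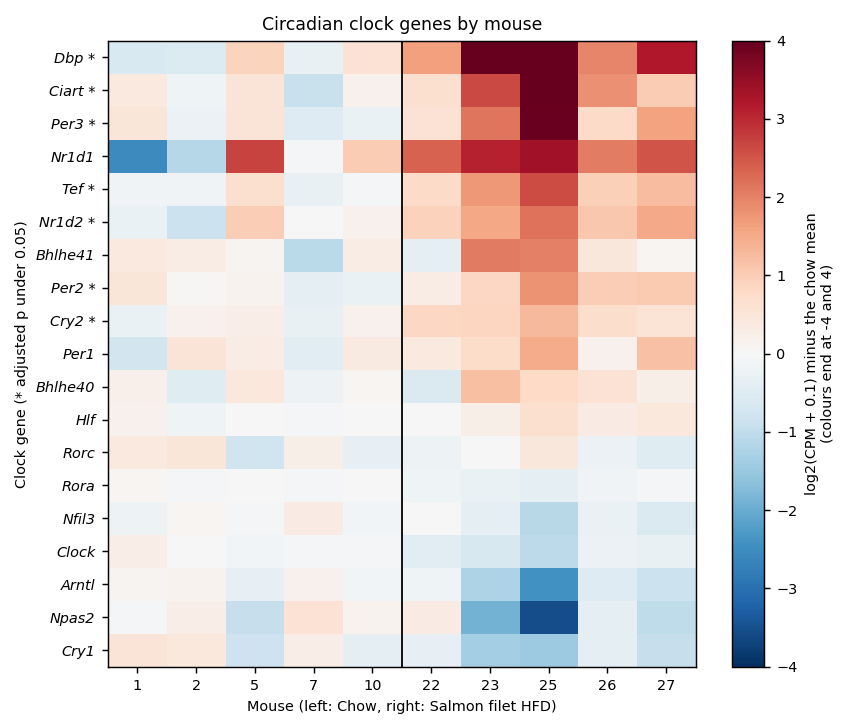
Difference of log2(CPM + 0.1) from the Chow mean for the 19 clock genes (rows, ordered by fold change) in each of the 10 mice (columns); asterisks mark an adjusted p under 0.05. Dbp, Ciart and Per3 reach the end of the colour scale in mouse 25, where Arntl and Npas2 are at their lowest, and Nr1d1 varies most among the Chow mice.

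Sterol and bile acid genes changed in both directions. Cyp7a1, the rate-limiting enzyme of bile acid synthesis (chr4:6265612-6275633, minus strand), was 593, 460, 247, 416 and 192 CPM in Chow and 57.8, 131, 140, 46.4 and 39.7 in Salmon filet HFD. The groups did not overlap, as the naming rule required, and the log2 fold change was -2.20 (SE 0.412, adjusted p = 0.0195). Cyp27a1, which starts the alternative route, was 316, 347, 378, 349 and 308 CPM in Chow and 222, 224, 219, 248 and 249 in Salmon filet HFD, a small change with little spread (log2 fold change -0.55, SE 0.0857, adjusted p = 0.00759). These were the called members of 13 bile acid synthesis genes, of which DESeq2 called 4 lower, and the median was -0.09. Of 13 genes of bile acid transport and FXR signalling, 3 fell, namely Slco1a1, the efflux pump gene Abcc4 (log2 fold change -1.07, adjusted p = 0.0317) and the bile salt export pump gene Abcb11 (-0.46, adjusted p = 0.0366).

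Of 10 LXR and sterol efflux genes, 3 rose and 1 fell. Srebf1, which encodes SREBP-1 (chr11:60199089-60222581, minus strand), was 107, 134, 137, 116 and 98.3 CPM in Chow and 249, 387, 340, 286 and 238 in Salmon filet HFD, more than the spread within either group (log2 fold change 1.34, SE 0.149, adjusted p = 8.99e-04). The sterol exporter pair Abcg5 and Abcg8 rose by 0.63 (adjusted p = 0.0395) and 0.79 (adjusted p = 0.0392), and Cyp27a1 was the member that fell. Abca1 and Abcg1 were each at -0.05 on the log2 scale (adjusted p = 0.813 and 0.856).

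Cholesterol synthesis genes lay mostly below zero, and the number that passed depended on the test. Of 21 genes, 19 had a negative log2 fold change, 10 had an unadjusted p under 0.05 and the median was -0.50, while edgeR called Sqle alone and DESeq2 called 8 lower. Sqle, squalene epoxidase, was 93.5, 134, 177, 111 and 73.7 CPM in Chow and 51.4, 45.9, 46.4, 67.6 and 76.9 in Salmon filet HFD (log2 fold change -1.03, SE 0.224, adjusted p = 0.0303). Mouse 27 lay above mouse 10, so the groups overlapped, and without mouse 23 the adjusted p of Sqle was 0.0539. Among the other enzymes, Idi1 was at -0.98 on the log2 scale (adjusted p = 0.0890) and Cyp51 at -0.89 (adjusted p = 0.0530). The sterol regulatory element TCACNCCAC, searched on both strands, occurred in 1 of the 16 members with a RefSeq promoter window, Hmgcs1. It occurred in 1.24% of all windows, a share per window, while a member was counted if any of its windows held it. None of 15 genes of sterol control and uptake was called by edgeR, with 4 at an unadjusted p under 0.05 and 0 called by DESeq2.

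**Figure D3:**
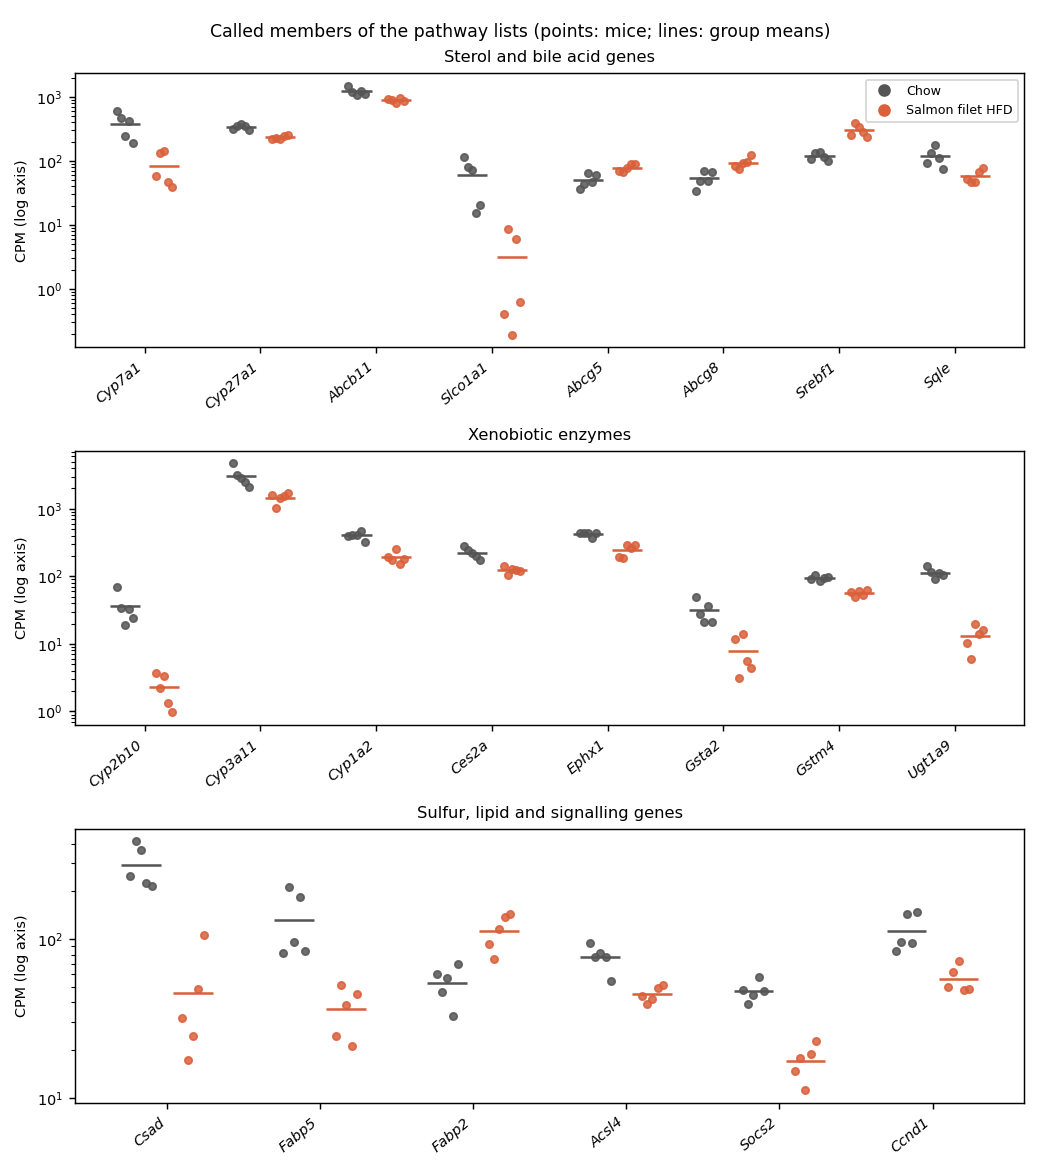
CPM on a log axis for called genes of the pathway lists in 5 Chow mice (grey) and 5 Salmon filet HFD mice (orange); points are mice and lines are group means. Cyp7a1, Cyp2b10 and Csad are lower and Srebf1 higher in every Salmon filet HFD mouse than in any Chow mouse, and Sqle overlaps between the groups.

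Some genes for the clearance of foreign compounds fell, while most did not pass. Of 23 genes of CAR, PXR and their targets, edgeR called 7 lower and none higher, DESeq2 called 9 lower and 1 higher, and 5 passed with edgeR without mouse 23. Of the 23, 17 had a negative log2 fold change and 6 a positive one, with a median of -0.21. Cyp2b10, the classical CAR target (chr7:25897620-25926624, plus strand), was 70.6, 33.6, 19.0, 32.5 and 23.8 CPM in Chow and 3.76, 2.21, 3.32, 1.33 and 0.965 in Salmon filet HFD. The lowest Chow mouse was far above the highest Salmon filet HFD mouse, and the log2 fold change was -3.96 (SE 0.439, adjusted p = 8.99e-04). Cyp3a11, the main PXR-responsive P450, was 4713, 3166, 2901, 2513 and 2070 CPM in Chow and 1579, 1024, 1432, 1524 and 1728 in Salmon filet HFD (log2 fold change -1.08, SE 0.212, adjusted p = 0.0232). The carboxylesterase gene Ces2a fell by 0.87 (adjusted p = 0.00673), the epoxide hydrolase gene Ephx1 by 0.79 (adjusted p = 0.0138), Cyp2c37 by 0.72 (adjusted p = 0.0148) and Cyp2c55 by 1.75 (adjusted p = 0.0397). Cyp2c29, the remaining called member, is outside the naming rule (log2 fold change -0.55, adjusted p = 0.0332). The transcript of Cyp2c37 is 95.9% identical to Cyp2c50 over 1809 bases, and the values of these P450 genes may share reads. The receptor genes themselves were not called: Nr1i3 (CAR) was at 0.20 on the log2 scale (adjusted p = 0.542) and Nr1i2 (PXR) at -0.14 (adjusted p = 0.296).

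Of 7 AhR pathway genes, 3 fell. Cyp1a2, a hepatocyte P450 of aromatic amines and caffeine, was 392, 413, 408, 476 and 327 CPM in Chow and 195, 176, 258, 151 and 180 in Salmon filet HFD (log2 fold change -1.07, SE 0.144, adjusted p = 0.00307). Cyp1a1 was at most 1.02 CPM in all 10 mice and fell by 1.74 (adjusted p = 0.0115), and Ahr, the receptor for dioxin-like compounds, fell by 0.46 (adjusted p = 0.00932). Among genes whose P450 symbol names a family, subfamily and member, which leaves out Cyp51, 71 were tested. Of these, 15 fell and none rose, with a median of -0.20, beside 4.57% called over all protein coding genes. Of the 15, those outside the lists were Cyp2c69, Cyp2c40 and Cyp2c68. They were named after their values were seen and had log2 fold changes of -1.31, -0.81 and -0.40. Cyp26a1, which degrades retinoic acid, was the called member of 16 retinoid genes, of which DESeq2 called 2 higher and 3 lower (log2 fold change -2.09, adjusted p = 0.0259).

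Several conjugating enzymes fell too. Of 15 glutathione transferase genes, 5 fell and 1 rose, with a median of -0.29. Gstm4 was 90.8, 104, 85.0, 94.8 and 96.2 CPM in Chow and 59.3, 49.4, 61.6, 53.1 and 62.2 in Salmon filet HFD, with little spread in either group (log2 fold change -0.72, SE 0.0866, adjusted p = 0.00151). Gsta2 fell by 2.01 (adjusted p = 0.0241), Gstm3 by 1.43 (adjusted p = 0.0251), Gstm1 by 0.63 (adjusted p = 0.0332) and Gstp1 by 0.50 (adjusted p = 0.0370), while Gstk1 rose by 0.49 (adjusted p = 0.0332). Gsta2 is 97.2% identical to Gsta1 over 870 bases and Gstp1 98.2% identical to Gstp2 over 707, so reads may be split within these pairs. Of 25 sulfotransferase and glucuronosyltransferase genes, 3 fell, and DESeq2 called 5 lower and 1 higher. Ugt1a9 was 142, 116, 92.3, 113 and 105 CPM in Chow and 10.2, 6.02, 19.6, 14.2 and 16.1 in Salmon filet HFD (log2 fold change -3.10, SE 0.267, adjusted p = 2.16e-04). It shares 1311 of its 2190 exon bases with the other Ugt1a genes, and its neighbour Ugt1a1 was at -0.09 on the log2 scale (adjusted p = 0.665). Sult3a1 fell by 1.77 (adjusted p = 0.0395) and Ugt2b38 by 0.91 (adjusted p = 0.00692). The transcript of Ugt2b38 is 95.5% identical to Ugt2b5 over 1861 bases, so reads may be split between these genes too.

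Of 18 eicosanoid and epoxide genes, 4 fell. Besides Ephx1 these were Cyp2c44, an arachidonic acid epoxygenase (427 ± 78.6 CPM in Chow and 210 ± 50.1 in Salmon filet HFD, SD, n = 5 each, log2 fold change -1.02, adjusted p = 0.0121), the lipoxygenase gene Alox12 (-0.96, adjusted p = 0.0483) and Cyp4f14, which inactivates leukotrienes (-0.54, adjusted p = 0.0294).

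**Figure D4:**
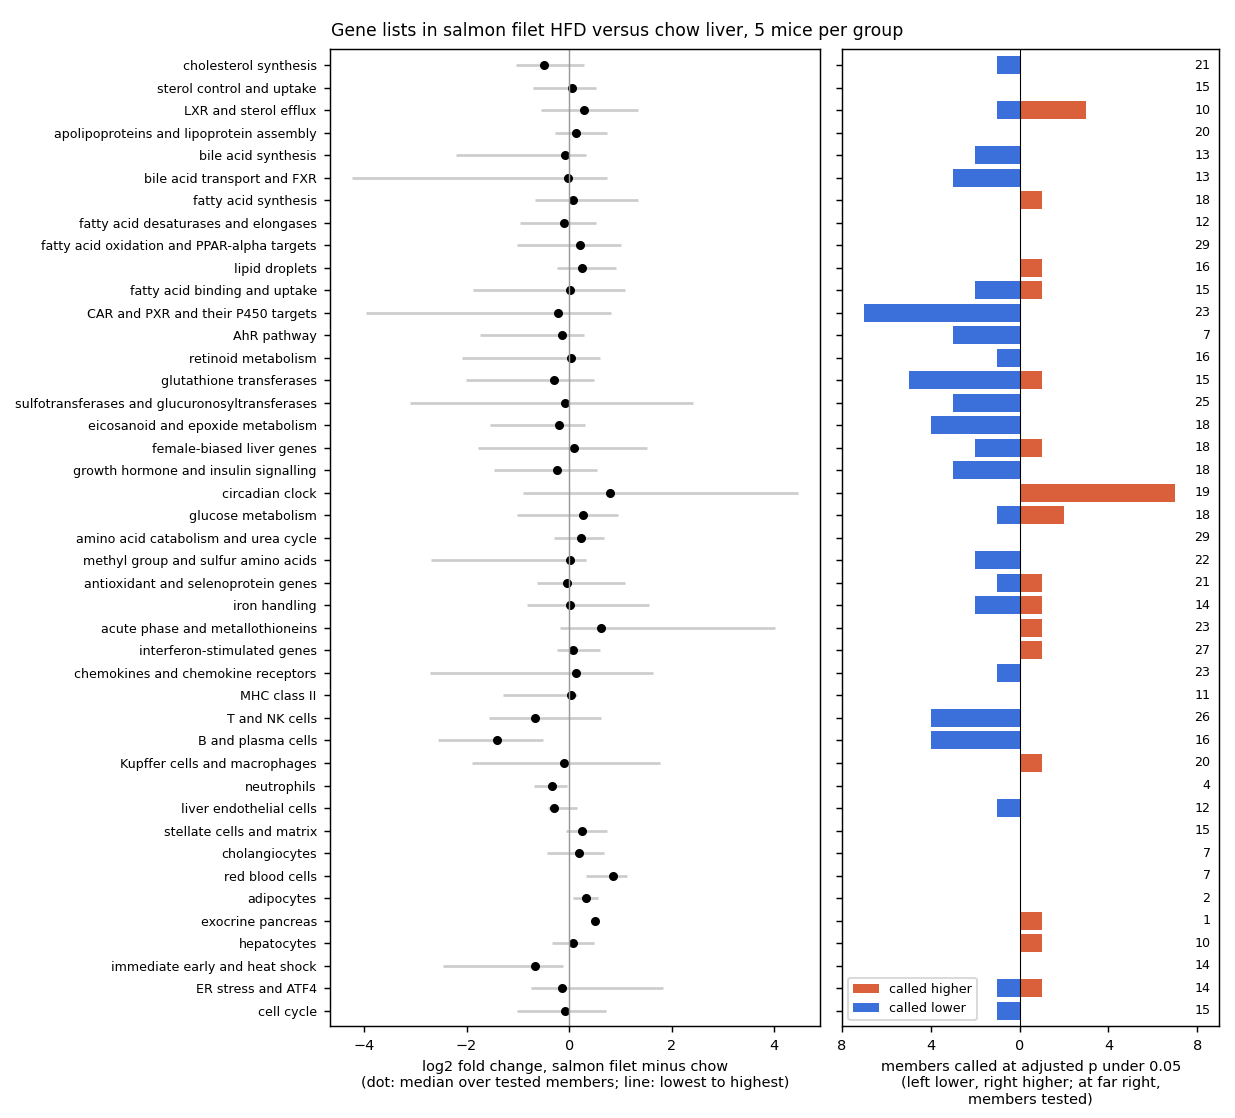
For each of 43 gene lists, the median and the range of the log2 fold change of Salmon filet HFD minus Chow over its tested members (left), and the members called higher or lower at an adjusted p under 0.05 with the number tested at the far right (right). The clock list has the most members called higher (7) and the CAR and PXR list the most called lower (7).

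Few lipid synthesis and oxidation genes passed the test, but the share over all protein coding genes tested was also low (4.57%). Such low counts are therefore not particular to these lists. Of 18 fatty acid synthesis genes, Srebf1 was the called one with edgeR, and DESeq2 called 3 higher. Fasn, fatty acid synthase, was at 0.69 on the log2 scale (adjusted p = 0.120) and Scd1 at -0.04 (adjusted p = 0.964). None of 12 desaturase and elongase genes, of 29 fatty acid oxidation and PPAR-alpha target genes or of 20 apolipoprotein and lipoprotein assembly genes was called, with 4, 7 and 1 at an unadjusted p under 0.05 and 1, 1 and 0 called by DESeq2. The lipid droplet coat gene Plin3 rose by 0.58 (adjusted p = 0.0232), the called member of 16 lipid droplet genes, of which DESeq2 called 3 higher. Of 15 fatty acid binding and uptake genes, 1 rose and 2 fell. Fabp5 (chr3:10012548-10016607, plus strand), a fatty acid binding protein, was 81.4, 214, 96.1, 184 and 84.0 CPM in Chow and 24.7, 51.1, 38.3, 21.2 and 45.3 in Salmon filet HFD, with no overlap (log2 fold change -1.87, SE 0.328, adjusted p = 0.0141). Fabp2, the intestinal form, went the other way, with 60.0, 46.3, 57.0, 32.6 and 69.6 CPM in Chow and 92.9, 74.5, 115, 137 and 144 in Salmon filet HFD (log2 fold change 1.08, SE 0.214, adjusted p = 0.0240). Acsl4, which activates arachidonic acid, fell by 0.77 (adjusted p = 0.0121).

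Of 18 glucose genes, 2 rose and 1 fell, and DESeq2 called 6 higher and 3 lower. Pfkfb1 rose by 0.38 (adjusted p = 0.0398) and Pfkfb3 fell by 0.89 (adjusted p = 0.0141), both of them enzymes that set fructose 2,6-bisphosphate. None of 29 amino acid catabolism and urea cycle genes was called by edgeR, with 10 at an unadjusted p under 0.05 and 6 called by DESeq2, and their median was 0.24. Among 22 genes of methyl groups and sulfur amino acids, Csad and the monooxygenase gene Fmo1 (log2 fold change -0.39, adjusted p = 0.0404) fell, and the adjusted p of Fmo1 was 0.0720 without mouse 23.

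Growth hormone and sex-biased genes gave a mixed picture. Socs2, an inhibitor of growth hormone signalling, was 48.0, 39.1, 44.7, 57.6 and 47.4 CPM in Chow and 14.8, 17.8, 11.2, 18.9 and 22.7 in Salmon filet HFD, with the groups far apart (log2 fold change -1.47, SE 0.168, adjusted p = 0.00109). Of the 18 genes of growth hormone and insulin signalling, Onecut1 (log2 fold change -0.88, adjusted p = 0.0454) and Irs1 (-0.53, adjusted p = 0.0335) fell too and none rose, and DESeq2 called 5 lower and 0 higher. Onecut1 shares 2171 of its 4113 exon bases with Gm20649 on the same strand, and Irs1 shares 2822 of its 9144 with Gm9747 on the opposite strand. Of 18 genes known as female-biased, 2 fell and 1 rose. Sult3a1, given above, was among those that fell, and Hao2, a peroxisomal oxidase, rose by 1.52 with overlapping groups (adjusted p = 0.0380).

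Of 14 iron genes, Hamp2, a relative of the hepcidin gene Hamp, rose by 1.56 (adjusted p = 0.0366). Hamp itself was not called, with 18490 to 37132 reads in Chow and 4673 to 33492 in Salmon filet HFD. Tfrc, the transferrin receptor, and Bmp6, an inducer of hepcidin, fell by 0.67 (adjusted p = 0.0339) and 0.60 (adjusted p = 0.0459). Of 21 antioxidant and selenoprotein genes, the deiodinase gene Dio1 rose by 1.08 (adjusted p = 0.0347) and glutathione reductase, Gsr, fell by 0.28 (adjusted p = 0.0306). Of 14 genes of ER stress and ATF4, Chac1 rose and the chaperone gene Dnajb9 fell by 0.75 (adjusted p = 0.0265). Without mouse 23, Hamp2 was the 1 iron gene that passed, and 0 of the antioxidant and 0 of the ER stress genes did. Ccnd1, cyclin D1, was the called one of 15 cell cycle genes, at 83.8, 95.6, 143, 94.8 and 148 CPM in Chow and 50.0, 61.8, 72.7, 48.0 and 48.6 in Salmon filet HFD (log2 fold change -1.01, SE 0.180, adjusted p = 0.0157). Ccnd1 shares 1100 of 4709 exon bases with LTO1 on the opposite strand. None of 14 immediate early and heat shock genes was called, with 6 at an unadjusted p under 0.05 and 2 called by DESeq2, and all 14 had a negative log2 fold change with a median of -0.67. The list scores overlapped, from -0.68 to 1.59 in Chow and -0.63 to 0.64 in Salmon filet HFD. Chow mice 5 (1.59) and 10 (0.75) were the highest, while Chow mice 1 and 2 lay at -0.68 and -0.58.

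Most acute phase genes lay above zero, but 1 passed with edgeR and 6 with DESeq2. Of 23 genes, 22 had a positive log2 fold change, 11 had an unadjusted p under 0.05 and the median was 0.63, against 0.36 without mouse 23. Saa2, serum amyloid A2 (chr7:46751790-46754313, plus strand), was the called one, at 11.1, 14.9, 12.5, 11.2 and 35.2 CPM in Chow and 31.7, 1129, 107, 58.8 and 40.8 in Salmon filet HFD. Mouse 23 was more than 10 times above every other mouse, and mouse 22 lay within the Chow range. The log2 fold change was 4.01 (SE 0.998, adjusted p = 0.0441) with mouse 23 and 1.81 (adjusted p = 0.0405) without it. Saa2 is 96.7% identical to Saa1 over 2448 bases, and Saa1 itself was at 3.62 on the log2 scale (adjusted p = 0.0530). Of 27 interferon-stimulated genes, the antigen transporter gene Tap1 was the called one. It rose by 0.60 (adjusted p = 0.0407), and its adjusted p was 0.0720 without mouse 23. Single calls are not particular to these lists, as 4.57% of all protein coding genes tested were called.

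Several lymphocyte genes fell with salmon filet. All 16 B and plasma cell genes tested had a negative log2 fold change, edgeR called 4 and DESeq2 12, and the median was -1.4. Their summed level was 44.0, 447, 44.6, 76.8 and 49.6 CPM in Chow and 38.6, 22.6, 41.1, 36.2 and 36.5 in Salmon filet HFD. The groups did not overlap, but mouse 2 was far above the other Chow mice, which without it reached 76.8 CPM. Pou2af1, a B cell transcription cofactor, fell by 1.57 (adjusted p = 0.0273), Fcmr, the IgM Fc receptor, by 1.67 (adjusted p = 0.0482) and Ms4a1, which encodes CD20, by 1.3 (adjusted p = 0.0478). Without mouse 23, none of these genes passed, with adjusted p from 0.0505 (Pou2af1) to 0.0832 (Ms4a1) for the 4 and a median of -1.26 over the list. Of 26 T and NK cell genes, 22 had a negative log2 fold change, 4 fell and none rose (7 lower and 0 higher with DESeq2), with a median of -0.67, a summed level of 26.1 to 29.7 CPM in Chow and 19.6 to 27.0 in Salmon filet HFD, ranges that overlapped, and 1 call without mouse 23. The T cell genes Cd28 fell by 1.56 (adjusted p = 0.0332), Cd3d by 1.4 (adjusted p = 0.0459), Trac by 1.08 (adjusted p = 0.0441) and Thy1 by 0.84 (adjusted p = 0.0254). Of 23 chemokine and receptor genes, Cxcl13 was the called one, a share near the 4.57% over all protein coding genes, and DESeq2 called 2 lower.

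Of 20 Kupffer cell and macrophage genes, 15 had a negative log2 fold change and 5 a positive one, from -1.89 to 1.77. The median was -0.11, and 5 had an unadjusted p under 0.05. The share called, 1 gene, was near the 4.57% over all protein coding genes. Trem2, a lipid-sensing receptor of macrophages, was the called one. It was 0.155, 0.636, 0.353, 0.0866 and 0.447 CPM in Chow and 1.44, 0.947, 1.19, 0.880 and 1.33 in Salmon filet HFD, low in both groups but without overlap (log2 fold change 1.77, SE 0.393, adjusted p = 0.0327). The resident Kupffer cell gene Clec4f had -0.09 (adjusted p = 0.745), and Gpnmb, another gene of lipid-laden macrophages, -0.04 (adjusted p = 0.979). Gpnmb had 8, 112, 13, 9 and 14 reads in Chow, with mouse 2 far above the rest. In Salmon filet HFD it had 22, 7, 26, 45 and 45. Of 12 liver endothelial genes, Dnase1l3 was the called one and fell by 0.41 (adjusted p = 0.0336). Of the 12, 10 had a negative log2 fold change and 2 a positive one, with a median of -0.30. An unadjusted p under 0.05 was found for 8, beside 25.2% over all protein coding genes. None of the genes for stellate cells and matrix (15 tested), cholangiocytes (7), neutrophils (4), red blood cells (7), MHC class II (11) or adipocytes (2) was called by edgeR, with 1, 0, 0, 3, 2 and 1 at an unadjusted p under 0.05 and 0, 0, 0, 1, 2 and 0 called by DESeq2. The summed red cell level was 74.3 to 218 CPM in Chow and 106 to 494 in Salmon filet HFD, and the median over these genes was 0.86 on the log2 scale. Of 8 exocrine pancreas genes, Cela1 was the 1 tested, and it rose by 0.51 (adjusted p = 0.0323).

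Whether these changes differed from those in the other HFD groups was tested by setting the 5 Salmon filet HFD mice against the mean of the 5 Fishmeal HFD and 4 Beef HFD mice. Of 13629 protein coding genes, 8 (0.0587%) passed, all of them higher with salmon filet. At an unadjusted p under 0.05 there were 573, no more than chance alone would give. Cholesterol synthesis made up 5 of the 8, namely Pmvk, Fdps, Fdft1, Sqle and Lss, in the order of the pathway from mevalonate to lanosterol. All 21 tested members of that list had a positive difference with a median of 0.79. On a CPM scale set over all 20 libraries, Sqle was 56.6 ± 13.6 with salmon filet (SD, n = 5), 9.02 ± 4.73 with fishmeal (n = 5), 38.7 ± 13.5 with beef (n = 4) and 116 ± 39.6 in Chow (n = 5). The log2 difference from the other HFD groups was 1.58 (SE 0.265, adjusted p = 0.0386), and the Salmon filet HFD mice lay above all Fishmeal HFD mice but overlapped with Beef HFD. Fdps, which makes farnesyl diphosphate, was 16.6 ± 4.50 with salmon filet, 2.98 ± 0.556 with fishmeal, 12.3 ± 6.11 with beef and 19.6 ± 8.08 in Chow, with a log2 difference of 1.44 (SE 0.233, adjusted p = 0.0343).

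Fabp5, which like Sqle passed against Chow as well, had 35.5 ± 12.7 CPM in Salmon filet HFD, 8.35 ± 2.65 in Fishmeal HFD, 13.8 ± 3.82 in Beef HFD and 130 ± 62.0 in Chow. It was thus below Chow and above the other HFD groups, without overlap (log2 difference from the latter 1.71, SE 0.231, adjusted p = 0.0263). The differences of Pmvk, Fdft1 and Lss were 1.02, 0.89 and 0.79 (adjusted p = 0.0372, 0.0330 and 0.0263). Nfe2, a transcription factor of the red cell lineage, and Pdzk1ip1, a small membrane protein gene, differed by 1.94 (adjusted p = 0.0309) and 1.52 (adjusted p = 0.0263). Without mouse 31 in either group these were the calls, and with it counted as beef Fdft1 (adjusted p = 0.0623) and Sqle (adjusted p = 0.0608) did not pass. The mean of Chow was above that of Salmon filet HFD, which was above Beef HFD, which was above Fishmeal HFD, in each of the 8 genes. Beef HFD overlapped with Salmon filet HFD in Fdft1, Sqle, Lss and Fdps, Fishmeal HFD in none, and salmon filet was not tested against either diet alone.

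**Figure D5:**
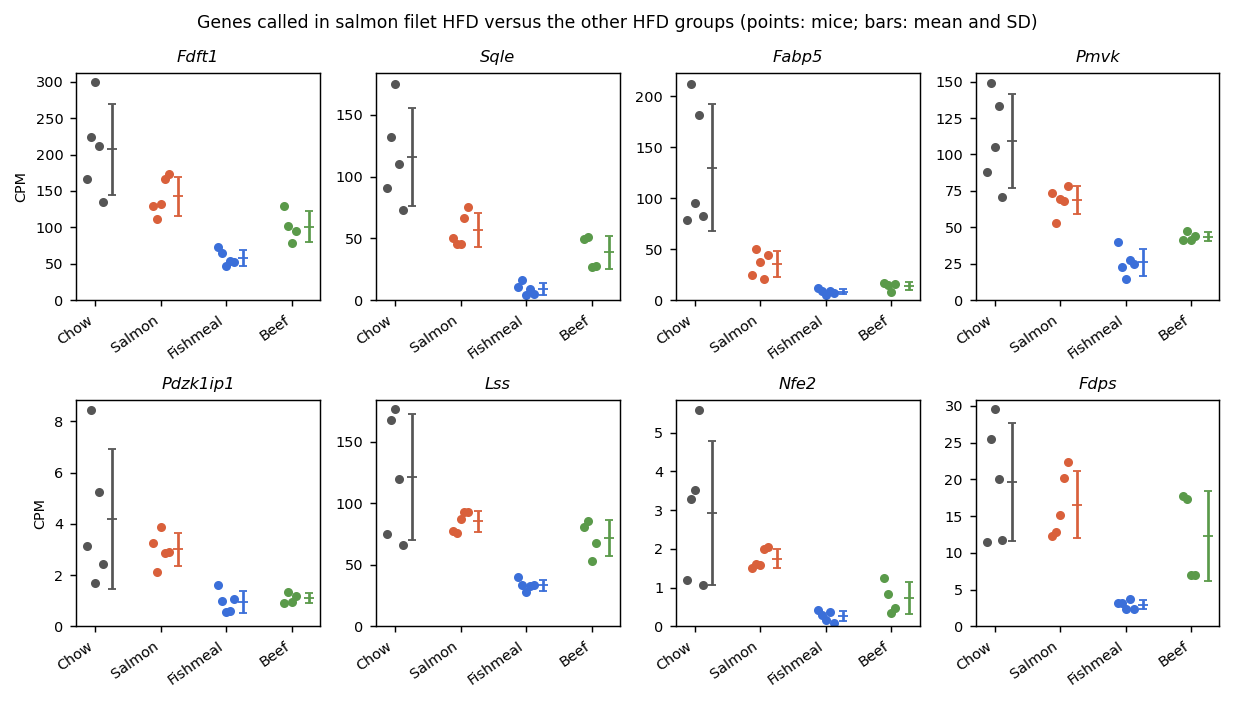
CPM on a linear axis for the 8 genes that differed between Salmon filet HFD and the mean of the other HFD groups, in Chow (5 mice), Salmon filet HFD (5), Fishmeal HFD (5) and Beef HFD (4); points are mice and bars are the mean and SD. In every panel the Salmon filet HFD mice lie above all Fishmeal HFD mice.

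None of the 24 genes with the largest changes against Chow passed in this comparison, whose smallest adjusted p among them came from Ugt1a9 (log2 difference -0.90, adjusted p = 0.716). Each HFD group was also compared with the same 5 Chow mice, so these values share their controls. Against Chow, 3.50% of protein coding genes passed with fishmeal and 2.53% with beef, with 1 mouse fewer and libraries of 84.34% to 94.24% protein coding reads. Dbp had a log2 fold change of 4.46 with salmon filet, 4.53 with fishmeal and 5.36 with beef, Cyp2b10 of -3.96, -4.03 and -4.66, Slc34a2 of -3.46, -2.93 and -3.46, and Csad of -2.69, -2.75 and -2.59. Onecut1 had -0.88, -1.30 and, with beef, 0.24 (adjusted p = 0.854). Sqle had -1.03 with salmon filet, -3.68 with fishmeal and -1.58 with beef. Of the 21 cholesterol synthesis genes, 1 was called against Chow with salmon filet, 19 with fishmeal and 7 with beef, with medians of -0.50, -1.84 and -0.75.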

How the data were processed

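Liver RNA was prepared as strand-specific mRNA libraries and read as paired ends. By the submitters' processing notes, the authors mapped reads with HISAT2 1.2.1 and counted them with featureCounts 1.4.6-p1, and the deposited values are raw counts per Ensembl gene and, in a second table, TPM (scaled to gene length and library size). The handling of strand and of reads that fit several genes is not given in the sources used here. All per-sample columns were assigned (0 not used). Groups are those on which the labels and the table headers have the same diet, and mouse 31, on which they differ, was kept out of the groups.

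The counts were analysed here with edgeR 4.0 in R 4.3: normalised by TMM, filtered with filterByExpr (minimum count 10), tested with two-sided quasi-likelihood F-tests and Benjamini-Hochberg adjustment over the 16475 genes tested, with calls at an adjusted p under 0.05 counted among protein coding genes. SEs were derived from the F statistic, and CPM uses TMM factors of the 10 libraries. Named genes are the 12 called higher and the 12 called lower with the largest change, given groups that did not overlap and 1 CPM or more on average, and up to 6 called members per list. List members named beyond this rule, such as those that did not pass, were chosen after their values were seen. The members, the 43 lists and the comparisons were chosen with earlier results of these data known. For a list's score, log2(CPM + 0.5) was centred per gene on the 10 mice and averaged over the list. All 730 list entries were found in the table. The P450 family and the Gapdh copies were counted after the values were seen.

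Positions are from GENCODE M21 (GRCm38), which held 55141 of the 55487 identifiers, while the labels name GRCh38, a human build, for these mouse libraries. Similar transcripts were sought with blastn 2.17 at 95% identity over at least 200 bases, and promoter windows are from RefSeq. Pairs of libraries within a group differed by more than counting noise (chi-square per gene 41 to 230). Alternatives were DESeq2 1.42, RLE and upper quartile normalisation, other filters (at least 1 count in all, or 10 in every library), limma 3.58 on log2(TPM + 1) for the deposited TPM values with a mean of at least 0.5, a fit on all groups, mouse 31 added, and each mouse left out. The scripts were tested on simulated data. A few genes that passed or missed the test are not reported here by name, although they count in their lists.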

Additional observations from a re-analysis of the deposited data

Results flagged for a closer look

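Among 264 groups of 5 values (the 89 named genes and the 43 list scores, each in Chow and in Salmon filet HFD), 15 had a mouse far from the others by Dixon's test, a rule that chance meets in about 1 group in 20. Mouse 23 was high in Salmon filet HFD for Saa2 (1129 CPM, the others 31.7 to 107) and for the score of the acute phase list (1.90, the others -0.15 to 0.31). Mouse 25 was high in the same group for Per3 (52.7 CPM, the others 4.98 to 15.1), mouse 22 for Tuba8 (0.332 CPM, the others 0.166 to 0.196) and mouse 26 for the score of bile acid transport and FXR (-0.08, the others -0.22 to -0.20). In Chow, mouse 5 was high for Cyp26a1 (48.1 CPM, the others 10.9 to 21.5), Sult3a1 (454 CPM, the others 182 to 236), Tef (47.4 CPM, the others 24.9 to 29.2) and the retinoid score (0.45, the others -0.07 to 0.03). Mouse 1 was high for Cyp2b10 (70.6 CPM, the others 19.0 to 33.6) and low for Abcc4 (6.16 CPM, the others 7.60 to 8.01) and for the adipocyte score (-0.51, the others -0.13 to -0.03). Mouse 2 was high for Cib3 (8.33 CPM, the others 0.529 to 0.960), mouse 7 was low for Ephx1 (374 CPM, the others 432 to 440), and mouse 10 was high for Saa2 (35.2 CPM, the others 11.1 to 14.9).

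The log2 difference of Salmon filet HFD from the other HFD groups passed the edgeR test for Nfe2 (1.94), Fabp5 (1.71), Sqle (1.58), Pdzk1ip1 (1.52), Fdps (1.44), Pmvk (1.02), Fdft1 (0.89) and Lss (0.79), where the Salmon filet HFD mice were the higher ones.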

How the results depend on the processing

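The number of genes called against Chow was 615 with edgeR, 1453 with DESeq2 and 293 with limma on TPM, and 484 to 634 with RLE, upper quartile, the other filters, the fit on all groups or mouse 31 added. Leaving out 1 mouse gave 167 to 533 genes. Dropping Salmon filet HFD mouse 22 gave 223, mouse 23 gave 393, mouse 25 gave 167, mouse 26 gave 190 and mouse 27 gave 322, and dropping Chow mouse 2 gave 202 and mouse 7 gave 167, each below 615 by more than 1.5 times, and the fits use fewer samples. Of the 615, 115 were called in each of the 10 fits, 612 by DESeq2 and 473 with mouse 31. None of the 89 named genes changed direction under an alternative that tested it, while 38 to 73 of them were called when 1 mouse was dropped (57 without mouse 23). The named genes were picked as called in the main fit, and the alternatives reuse its mice. The unchanged direction therefore adds no support. Of the 24 genes with the largest change, 17 were called in each of the 10 fits. Against the other HFD groups, 8 genes were called with edgeR, 24 with DESeq2, 11 without mouse 23 and 6 with mouse 31 counted as beef. No paired analysis was possible because each mouse number occurs once. With 5 mice per group, changes that miss the threshold are not shown to be absent. Genes under about 1 CPM rest on few reads.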

Other observations

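Gapdh, a glycolytic gene often used as a reference in expression assays, was chosen here after its values were seen. It was 8.20, 7.16, 15.6, 7.25 and 10.3 CPM in Chow and 199, 161, 12.9, 13.9 and 68.2 in Salmon filet HFD (log2 fold change 3.23, SE 0.703, adjusted p = 0.0303), so that mice 25 and 26 lay within the Chow range and mice 22, 23 and 27 above it. The table holds 75 genes with Gapdh sequence, of which 13 were tested. The copy Gm5559 was 56.7, 77.6, 61.6, 89.6 and 64.8 CPM in Chow and 57.1, 60.7, 88.6, 74.8 and 53.5 in Salmon filet HFD, and Gm3839, the copy among the largest decreases, was 0.974 to 8.41 and 0.0666 to 0.447. The sum over the 75 genes was 80.1 to 121 CPM in Chow and 115 to 277 in Salmon filet HFD. How the reads were divided among the copies was not tested.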
